A study of Drosophila melanogaster with 20 samples.

Results

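Brains of 3 d miR-34 null flies were set against brains of 3 d wild-type Drosophila melanogaster, and the difference was followed gene family by gene family. The 10 arrays concerned, 5 of each genotype, were those titled with the line label 0110 (null) or 5905 (wild type) and an age of 3 d, out of 20 arrays in the series. The other 10 arrays hold the same lines at 20 d. All flies were raised on cornmeal molasses medium with yeast at 25 °C and aged naturally, and total RNA of dissected brains was hybridised to Affymetrix Drosophila 2 arrays with 1 biotin-labelled sample per array. Of 18952 probe sets, 183 controls were left out, which leaves 18769. Of these, 9806 passed a filter on low signal, being above the array's median on at least 5 of the 20 arrays, and they stood for 7704 of the 11982 named genes with a probe set.

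The microRNA miR-34 is one of the short RNAs that guide silencing proteins to messenger RNAs and lower their output. In flies it is expressed in the adult nervous system, and its level rises as the fly ages. Loss of a microRNA can change its direct targets and, through them, many other transcripts.

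Each genotype is a single line, so other genetic differences between line 0110 and line 5905 cannot be told apart from the loss of miR-34. Nothing in the labels tells whether the 5 arrays of a genotype stand for different animals or how many brains were pooled, so p-values reflect the spread among these arrays alone, which could be technical. Precision is limited by there being 5 arrays in each group. Signals of mir-34, its published target Eip74EF and w, which sets eye colour, were not analysed here, and the genotype was not checked from the arrays. Fmr1, the fragile X gene that lies next to mir-34 in the gene order, had 916, 823, 903, 1025 and 1065 units in the null arrays, against 732, 762, 806, 801 and 772 in the wild-type arrays. Every null array exceeded every wild-type array. Its log2 fold change was 0.28 ± 0.053 (adjusted p = 2.20e-04 by limma), but the call was lost when its probe sets were averaged (adjusted p = 0.148).

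Arrays of the 3 d null group correlated with each other (r over the tested probe sets) at 0.992 to 0.997, those of the 3 d wild type at 0.994 to 0.997, and arrays of different genotypes at 0.966 to 0.971, so no array stood apart from its group. Median signals were 20.8 to 21.8 units in the null arrays and 19.1 to 21.3 in the wild-type arrays. The dissected tissue carried the markers of brain in both lines. The 5 neuronal markers on the array (elav, nSyb, brp, para and fne) summed to 3142 to 4002 units in null and 3301 to 3902 in wild type, and none of the 5 was called. The 7 glial markers summed to 8449 to 9394 units in null and 8607 to 8993 in wild type, with 1 of 7, wrapper, called higher. The 7 haemocyte markers summed to 1045 to 1153 in null and 1040 to 1125 in wild type, with 2 of 7 called higher and 2 lower. Most of this sum was Pxn (median 704 in null, 681 in wild type), which was not called. Marker sums of muscle, digestive tract, photoreceptors and cuticle differed between the lines, as did those of oenocytes and fat body, and are given beside the families they touch. The 3' to 5' log2 ratios of the GAPDH, eIF-4a and actin controls differed by 0.07, 0.07 and 0.04 between null and wild type, with adjusted p of 0.119, 0.226 and 0.579 over the 3 controls (two-sided exact permutation test, n = 5 each).

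A young null brain differed from a young wild-type brain in a large number of transcripts, most of them by little. By limma, 1513 probe sets were higher in null (15.4% of those tested) and 1806 lower (18.4%) at adjusted p under 0.05, together 3319 or 33.8%. Differences of at least 2-fold were found for 134 of the higher probe sets (1.37%) and 87 of the lower (0.887%). The split depended on scaling, with 1083 higher and 2595 lower after the arrays were centred on their medians, when the median change over all probe sets was -0.06 instead of -0.01. With 1 probe set for each gene, 2698 of 7704 genes were called (35.0%), 1231 higher (16%) and 1467 lower (19.0%). The median absolute difference among called genes was 0.24 on the log2(signal + 16) scale, and 2177 of the 2698 (80.7%) differed by less than 0.5. At least 2-fold differences were seen in 174 genes (2.26%), 110 higher (1.43%) and 64 lower (0.831%). The 5 null and 5 wild-type arrays did not overlap for 2383 probe sets (24.3%) and 1944 genes (25.2%). All fold changes below are log2 fold changes of null minus wild type on the log2(signal + 16) scale, ± SE, and this scale understates the change of genes with low signal.

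**Figure D1:**
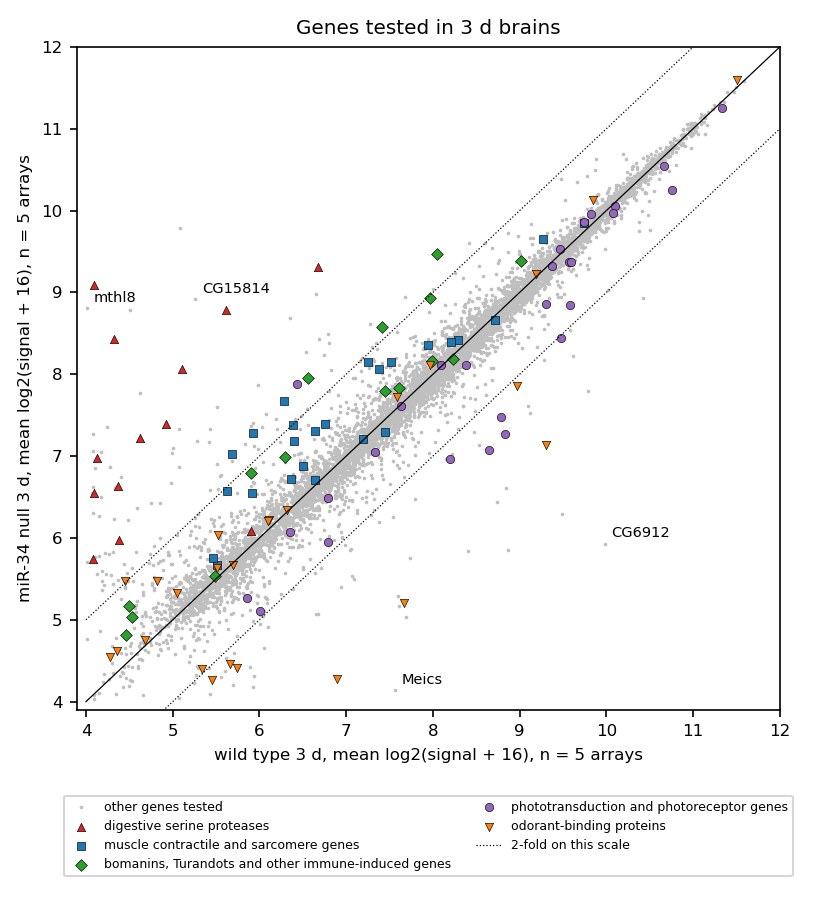
Mean log2(signal + 16) of each of the 7704 genes tested in 3 d miR-34 null brains (vertical axis, n = 5 arrays) against 3 d wild-type brains (horizontal axis, n = 5 arrays), with the solid line at equality and dotted lines at a 2-fold difference. Most genes lie along the solid line, digestive proteases lie above it, mostly far from it, muscle and immune-induced genes lie mostly above it, and photoreceptor genes lie mostly below it.

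The largest rises joined genes of the digestive tract to genes of unknown role. Jon99Fi, a Jonah-type digestive serine protease, had 502, 488, 467, 603 and 604 units in the null arrays, against 1.68, 0.183, 0.913, 1.07 and 1.43 in the wild-type arrays, a change of 5.00 ± 0.066 (adjusted p = 1.80e-25). The receptor gene mthl8, of the Methuselah-like family, had 414, 416, 455, 419 and 454 units in the null arrays, against 0.0466, 0.0799, 0.0927, 0.0554 and 0.376 in the wild-type arrays, a change of 4.79 ± 0.052. The uncharacterised gene CG16826 had 909, 920.2, 855, 856 and 801 units in the null arrays, against 16.9, 16.8, 21.1, 17.1 and 17.9 in the wild-type arrays, a change of 4.70 ± 0.045. In each of the 3, every null array lay far above every wild-type array. CG15814 had 424, 477, 477, 476 and 485 units in the null arrays, against 17.2, 22.9, 20.5, 27.5 and 24.8 in the wild-type arrays, with a change of 3.65 ± 0.062. The rest of the 15 largest rises were whe (4.28), Jon25Biii (4.12), CG8562 (3.18), alphaTry (3.18), CG13947 (3.15), CG18180 (3.11), CG3868 (2.98), yip7 (2.96), CG12009 (2.88), thetaTry (2.86) and CG18493 (2.74). The ranking covers only probe sets with a single gene symbol. A probe set without one averaged 1295 units in null and 2.30 in wild type at 3 d, a wider gap than that of Jon99Fi. At 20 d it averaged 1147 and 2.11.

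Among the largest falls were a gene of meiosis, chemosensory genes and a gene of the red eye pigment. CG6912 had 41.3, 39.4, 52.6, 40.6 and 52.6 units in the null arrays, against 1039, 960.4, 950.1, 1024 and 1033 in the wild-type arrays, a change of -4.06 ± 0.059 (adjusted p = 1.58e-24). Meics, which encodes a zinc finger protein named for the meiotic central spindle, had 0.972, 2.44, 1.56, 2.92 and 0.501 units in the null arrays, against 178, 168, 152, 176 and 197 in the wild-type arrays, a change of -3.42 ± 0.065. The null arrays were all near the bottom of the signal range and the wild-type arrays all far above it. The synaptonemal complex gene c(2)M, known from meiosis, had 24.5, 20.5, 22.1, 24.5 and 25.2 units in the null arrays, against 151, 209.9, 188, 193 and 152 in the wild-type arrays, a change of -2.30 ± 0.091. AstC-R1, a receptor for the neuropeptide allatostatin C, had 34.4, 38.5, 42.03, 36.1 and 38.7 units in the null arrays, against 201, 244, 188, 160.2 and 206 in the wild-type arrays, a change of -1.99 ± 0.085. The groups did not overlap in any of the 4. The others were CG9377 (-3.19), Ir76a (-3.02), CG43085 (-2.66), Obp83b (-2.62), Cpr49Ag (-2.56), Obp69a (-2.46), se (-2.44), pkm (-2.30), CG6870 (-2.24), Obp99b (-2.17) and ltl (-1.99). The null arrays of ltl had 180.1, 167, 175, 207 and 345 units, with replicate 5 far above the other 4 and still below the wild-type arrays at 810 to 909.

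Not every large difference of the young brain was present in the older one. Of these 30 genes, 23 had an effect of genotype that differed between 20 d and 3 d (limma interaction, adjusted p under 0.05), against 17.9% of all genes tested. The 30 were chosen by their 3 d change, and 9 of the 15 rises would not have passed the filter without the 3 d null arrays. The count is therefore a description. A difference of at least 2-fold in the same direction was present at 20 d in 4 of the 15 rises and 13 of the 15 falls. Jon99Fi stood at -0.22, CG8562 at -0.02 and CG18493 at 0.01 at 20 d. The differences in mthl8 (4.94 at 20 d), CG15814 (3.59), CG6912 (-4.07), Meics (-3.37), se (-2.30), c(2)M (-2.01) and AstC-R1 (-1.92) were not called as different between ages. For mthl8, se and c(2)M the interaction was called under median centring of the arrays, and for Obp99b, CG12009 and Cpr49Ag it was lost under at least 1 other setting. At 20 d, 3653 genes (47.4%) were called between the lines, 1673 higher (21.7%) and 1980 lower (25.7%) in null. Counts of higher and lower members of a gene family stand against 16% and 19.0% of all genes at 3 d, and against these 21.7% and 25.7% at 20 d.

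**Figure D2:**
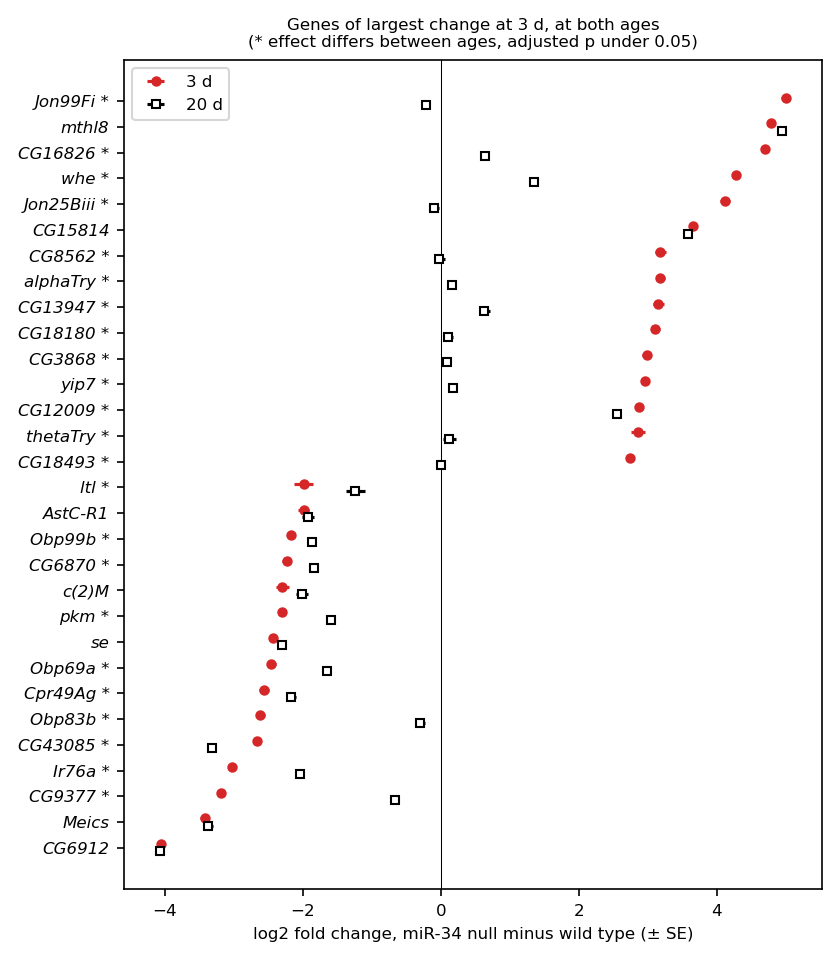
Log2 fold change, null minus wild type, of the named genes with the 15 largest rises and the 15 largest falls at 3 d (filled circles). The value at 20 d stands beside it (open squares), with bars ± SE and an asterisk where the effect differed between ages. Jon99Fi lies at 5.00 at 3 d and -0.22 at 20 d, whereas mthl8 lies at 4.79 and 4.94.

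Digestive enzymes were much higher in the 3 d null samples. Of 27 digestive serine protease genes with a probe set, 13 passed the filter and all 13 of these were called higher, with a median of 2.59 against -0.02 over all genes tested. Of the 13, 10 passed only because of the 3 d null arrays, which favours genes higher in null, so neither this count nor the median is evidence about the list. The trypsin gene alphaTry had 456, 434, 406, 427 and 414 units in the null arrays, against 30.3, 37.8, 31.0, 30.4 and 35.1 in the wild-type arrays, a change of 3.18 ± 0.063. The Jonah protease gene Jon25Biii had 338, 335, 332, 314 and 333 units in the null arrays, against 0.437, 4.82, 4.79, 4.67 and 5.62 in the wild-type arrays. Its null arrays lay close together and all wild-type arrays were near the bottom of the signal range. At 20 d the median of the 13 genes was 0.12, with 6 called higher and 1 lower.

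Some enzymes that split starch, sugars and fats were also higher. In the list of digestive carbohydrate, lipid and lysozyme enzymes, 11 of 31 genes with a probe set passed the filter, and 7 were higher and none lower. Since 5 of the 7 passed only through the 3 d null arrays, which favours genes higher in null, that count is no evidence about the list. Without these 5, 2 of 6 genes were higher, with a median of 0.09. The maltase gene Mal-A1 had 92.8, 87.9, 91.2, 86.6 and 99.5 units in the null arrays, against 4.66, 4.38, 6.42, 5.08 and 5.49 in the wild-type arrays, a change of 2.34 ± 0.053. The gut lipase gene mag had 79.7, 81.4, 86.2, 95.3 and 73.6 units in the null arrays, against 0.460, 1.30, 1.28, 0.234 and 1.52 in the wild-type arrays, a change of 2.55 ± 0.055. The 6 digestive markers on the array, all 6 of them called higher, summed to 1541 to 1674 units in 3 d null, against 50.05 to 65.2 in 3 d wild type. They include Jon99Fi, Jon25Biii, alphaTry, Mal-A1 and mag, named above, so the filter's limit on both digestive lists holds for them too. The marker calls and sums are no separate evidence. At 20 d they summed to 64.4 to 77.2 units in null and 62.3 to 74.8 in wild type. These genes belong to the gut rather than the brain, and the part of gut tissue or of RNA carried over in the dissection was not tested. In bulk tissue, fewer cells of a type and less RNA per cell cannot be told apart, here and in every family below.

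Contractile genes of muscle rose together in the young null samples. Of 27 genes with a probe set 25 passed the filter, 20 were higher (80.0%, against 16% of all genes) and none was lower, with a median of 0.42. The muscle LIM protein gene Mlp60A had 179.7, 187, 172, 208 and 193 units in the null arrays, against 55.7, 66.2, 63.9, 60.5 and 64.6 in the wild-type arrays, a change of 1.38 ± 0.053. Prm, which encodes paramyosin of the thick filament, had 130.2, 133, 145, 142 and 152 units in the null arrays, against 44.0, 47.1, 42.6, 53.4 and 38.8 in the wild-type arrays, a change of 1.36 ± 0.057. In both genes the lowest null array was above 2 times the highest wild-type array. Among thin-filament genes, the troponin C gene TpnC41C changed by 1.34 ± 0.058, the troponin T gene up by 0.99 ± 0.058 and the tropomyosin gene Tm2 by 0.67 ± 0.049. The troponin C gene TpnC73F, in contrast, had 76.0, 82.4, 99.1, 94.8 and 90.4 units in the null arrays, against 85.2, 89.1, 77.01, 86.0 and 80.6 in the wild-type arrays, and was not called (0.07 ± 0.053). The myosin light chain genes Mlc1 (0.90 ± 0.048) and Mlc2 (0.78 ± 0.052) were higher. Summed over the 7 muscle markers on the array, 3 d null arrays had 1107 to 1148 units and 3 d wild-type arrays 530 to 555, and all 7 were called higher. They include Mlp60A, Prm, up, Tm2, Mlc1 and Mlc2, named above, so the marker calls and sums are no separate evidence. The part of attached muscle in these rises was not tested. At 20 d, 11 of the 25 were higher and 7 lower, with a median of 0.08, and up (-0.33) and TpnC41C (-0.19) were lower in null at that age.

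**Figure D3:**
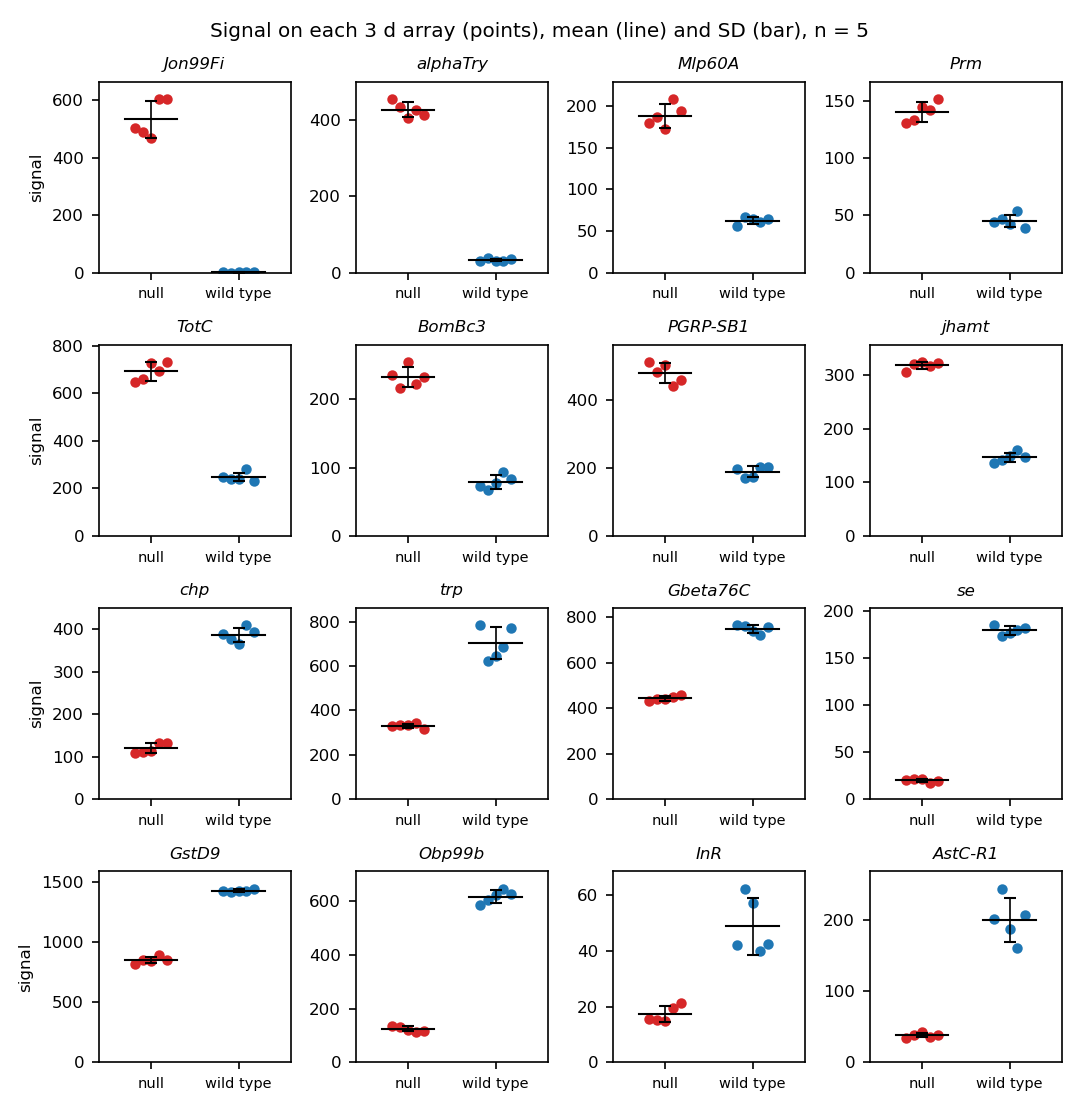
Signal of 16 genes on each 3 d array, null on the left and wild type on the right of each panel, with the mean as a line and the SD as a bar (n = 5 each, vertical axes from 0). The null arrays lie above the wild-type arrays in the panels from Jon99Fi to jhamt and below them from chp to AstC-R1, with no overlap in any panel.

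Induced immune peptides were mostly higher in null. In the list of bomanins, Turandots and other immune-induced genes, 15 of 20 genes with a probe set passed the filter, 13 of 15 were higher (86.7%) and none was lower, with a median of 0.50. TotC, a secreted stress-induced protein of the Turandot family, had 647, 659, 729, 694 and 732 units in the null arrays, against 249.8, 240.3, 239, 279.8 and 232 in the wild-type arrays, a change of 1.42 ± 0.043. BomBc3, a bomanin, one of the short peptides induced through Toll signalling, had 236, 217, 254, 223 and 233 units in the null arrays, against 73.2, 67.4, 78.2, 93.5 and 82.8 in the wild-type arrays, a change of 1.39 ± 0.059, and BomBc2 changed by 1.16 ± 0.043. In both TotC and BomBc3 every null array exceeded every wild-type array. At 20 d, 13 were higher and none lower, with a median of 0.70. The effect on TotC was larger at 20 d (2.62).

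Antimicrobial peptides split in 2 directions. Of 13 genes with a probe set 7 passed the filter, and all 7 were called, 3 higher (42.9%, against 16% of all genes) and 4 lower (57.1%, against 19.0%), with a median of -0.24. Of the 7, 1 passed only through the 3 d wild-type arrays, which favours a gene lower in null. The diptericin gene DptB had 85.6, 85.4, 152, 82.2 and 111 units in the null arrays, against 14.2, 28.8, 15.2, 16.3 and 16.4 in the wild-type arrays, a change of 1.79 ± 0.15. The metchnikowin gene Mtk had 98.7, 112, 107, 105 and 112 units in the null arrays, against 33.4, 34.3, 32.0, 44.6 and 33.2 in the wild-type arrays, a change of 1.26 ± 0.054, and the drosomycin gene Drs was the third (1.04). Against these, the drosomycin-like gene Drsl4 had 9.59, 5.97, 1.13, 6.79 and 1.43 units in the null arrays, against 27.2, 34.6, 29.7, 42.2 and 29.9 in the wild-type arrays, a change of -1.22 ± 0.11, and Drsl5, Def and CecB were also lower (-1.18, -0.44 and -0.24). Under a stricter filter that left 2 of the lower genes the median was 1.04, so the sign of the median says little.

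Recognition and signalling genes of the same response changed less. Of 30 measured genes of peptidoglycan recognition and of the Toll and Imd pathways 8 were higher and 4 lower (40.0%, against 35.0% of all genes), with a median of 0.03. The rises were led by secreted amidases that cleave peptidoglycan. PGRP-SC2 had 81.8, 82.2, 84.0, 78.5 and 83.4 units in the null arrays, against 5.28, 6.199, 4.27, 1.59 and 3.58 in the wild-type arrays, a change of 2.28 ± 0.064. PGRP-SB1 had 511, 482, 503, 441 and 458 units in the null arrays, against 197, 169.7, 173, 201 and 203 in the wild-type arrays, a change of 1.27 ± 0.059. The Imd pathway inhibitor pirk changed by 0.58 ± 0.057. PGRP-SC2 is also a gene of the gut, and the digestive marker sums above were likewise higher in the young null samples. The part of gut tissue in the rise of PGRP-SC2 was not tested. In the haemocyte, thioester and melanisation list 6 of 23 were higher and 5 lower, with a change of 0.48 ± 0.063 in the scavenger receptor gene Sr-CI and of -0.56 ± 0.048 in Tep4, a thioester protein gene. Of 14 serpins, inhibitors of serine proteases, 5 were higher and 1 lower, with changes from -0.35 to 0.27. Of the 14, 1 passed the filter only through the 3 d wild-type arrays.

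Genes of the eye fell across much of the visual cascade. In the list of phototransduction and photoreceptor genes 28 of 30 passed the filter, 18 were lower (64.3%, against 19.0% of all genes) and 2 higher, with a median of -0.27. Light activates rhodopsin in these cells, a G protein and phospholipase C pass the signal on, and the TRP channels then open. Of the surface and channel genes, chp, which encodes the adhesion protein chaoptin, had 109, 111, 114, 132 and 132 units in the null arrays, against 388, 377, 366, 409 and 393 in the wild-type arrays, a change of -1.57 ± 0.053. The light-gated channel genes trp and trpl changed by -1.04 ± 0.054 and -1.55 ± 0.055, and trp had 331, 335, 333, 341 and 317 units in the null arrays, against 783, 623, 646, 686 and 770.4 in the wild-type arrays. Both groups were apart in every array. The scaffold gene inaD had a median of 111 units (84.5 to 134) in null, against 282 (237 to 327) in wild type.

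Not every component of the cascade fell. Gbeta76C, the beta subunit of the eye G protein, had 431, 441, 439, 449.95 and 456 units in the null arrays, against 764, 762, 739.7, 721 and 758 in the wild-type arrays, a change of -0.73 ± 0.034. For the alpha subunit gene Galphaq the strongest probe set was not called (-0.04 ± 0.042), while another of its 3 probe sets averaged 363 ± 14.9 units in null and 724 ± 16.9 in wild type (SD), a change of -0.97 ± 0.034. The eye protein kinase C gene inaC fell by 0.45, and of the arrestins, which shut rhodopsin off, Arr1 fell by 0.51 while Arr2 was at -0.09 ± 0.061 and not called. Arr2 was called lower after quantile normalization (adjusted p = 0.00335). Rh7, an opsin also expressed in clock neurons of the brain, went the other way, with 207, 209.6, 204, 219 and 260.5 units in the null arrays, against 70.7, 67.8, 71.7, 74.8 and 68.8 in the wild-type arrays, a change of 1.44 ± 0.070. The 6 photoreceptor markers on the array summed to 4021 to 4548 units in null and 5950 to 6200 in wild type, with 5 of the 6 lower. These are chp, trp, trpl, inaD, Arr1 and Arr2, all named above, so the marker calls and sums are no separate evidence. The part of retinal tissue left on the brain was not tested. At 20 d 17 of the 28 were lower and 3 higher, with a median of -0.21.

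Of 19 eye pigment genes measured, 9 were lower (47.4%, against 19.0% of all genes) and 2 higher (10.5%, against 16%), and their median was -0.14. Of the 19, 1 passed the filter only through the 3 d wild-type arrays. The fall was largest in se, which encodes an enzyme of the red drosopterin pigments and had 20.9, 22.0, 21.04, 17.5 and 19.3 units in the null arrays, against 185, 173, 177, 180.3 and 182 in the wild-type arrays. The ABC transporter gene st, which carries precursors of the brown pigment, changed by -1.01 ± 0.073, and bw, which carries those of the red pigment, by -0.52 ± 0.085. Rab32, a small GTPase of pigment granules, changed by -0.75 ± 0.058. The groups did not overlap for any of these 4 genes. Leaving out 1 array at a time gave 6 to 9 lower pigment genes.

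Odorant-binding proteins, secreted carriers of odours in sensory hairs, moved in both directions. Of 50 genes with a probe set 25 passed the filter, and 8 were higher (32.0%, against 16% of all genes) and 8 lower (32.0%, against 19.0%). Of the 25, 4 passed only through the 3 d wild-type arrays, which favours genes lower in null. Under the stricter filter 5 were higher and 3 lower. Obp83b had 3.21, 2.78, 3.54, 4.81 and 2.71 units in the null arrays, against 109, 99.9, 107, 102 and 97.6 in the wild-type arrays, a change of -2.62 ± 0.064. Obp69a had 24.8, 22.5, 20.1, 20.1 and 17.4 units in the null arrays, against 184, 185, 192, 204 and 169.8 in the wild-type arrays, a change of -2.46 ± 0.061. Obp99b, which is also expressed in the fat body, had 137, 133, 121, 115 and 118 units in the null arrays, against 587, 605, 622, 647 and 626 in the wild-type arrays, a change of -2.17 ± 0.045. Lower too were Obp28a (-1.32) and lush (-1.20), the carrier needed to sense a male pheromone. The largest rise was that of Obp56e (1.02). At 20 d Obp83b stood at -0.30 and Obp69a at -1.65.

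Chemosensory receptors were mostly too low to measure, with 19 of 207 odorant, gustatory and ionotropic receptor genes passing the filter. Of these, 4 were higher and 5 lower (26.3%, against 19.0% of all genes). Of the 4, 2 passed only through the 3 d null arrays, which favours genes higher in null, and without them 2 of 17 were higher. The ionotropic receptor gene Ir76a had 46.3, 43.5, 42.7, 42.4 and 33.9 units in the null arrays, against 453, 464, 420.1, 459 and 468 in the wild-type arrays, a change of -3.02 ± 0.057, and Ir68a changed by -1.20 ± 0.066. CheA75a, of a family of proteins of contact chemosensory organs, was higher in null at 3 d and lower at 20 d (0.75 and -1.59, interaction adjusted p = 2.17e-17).

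**Figure D4:**
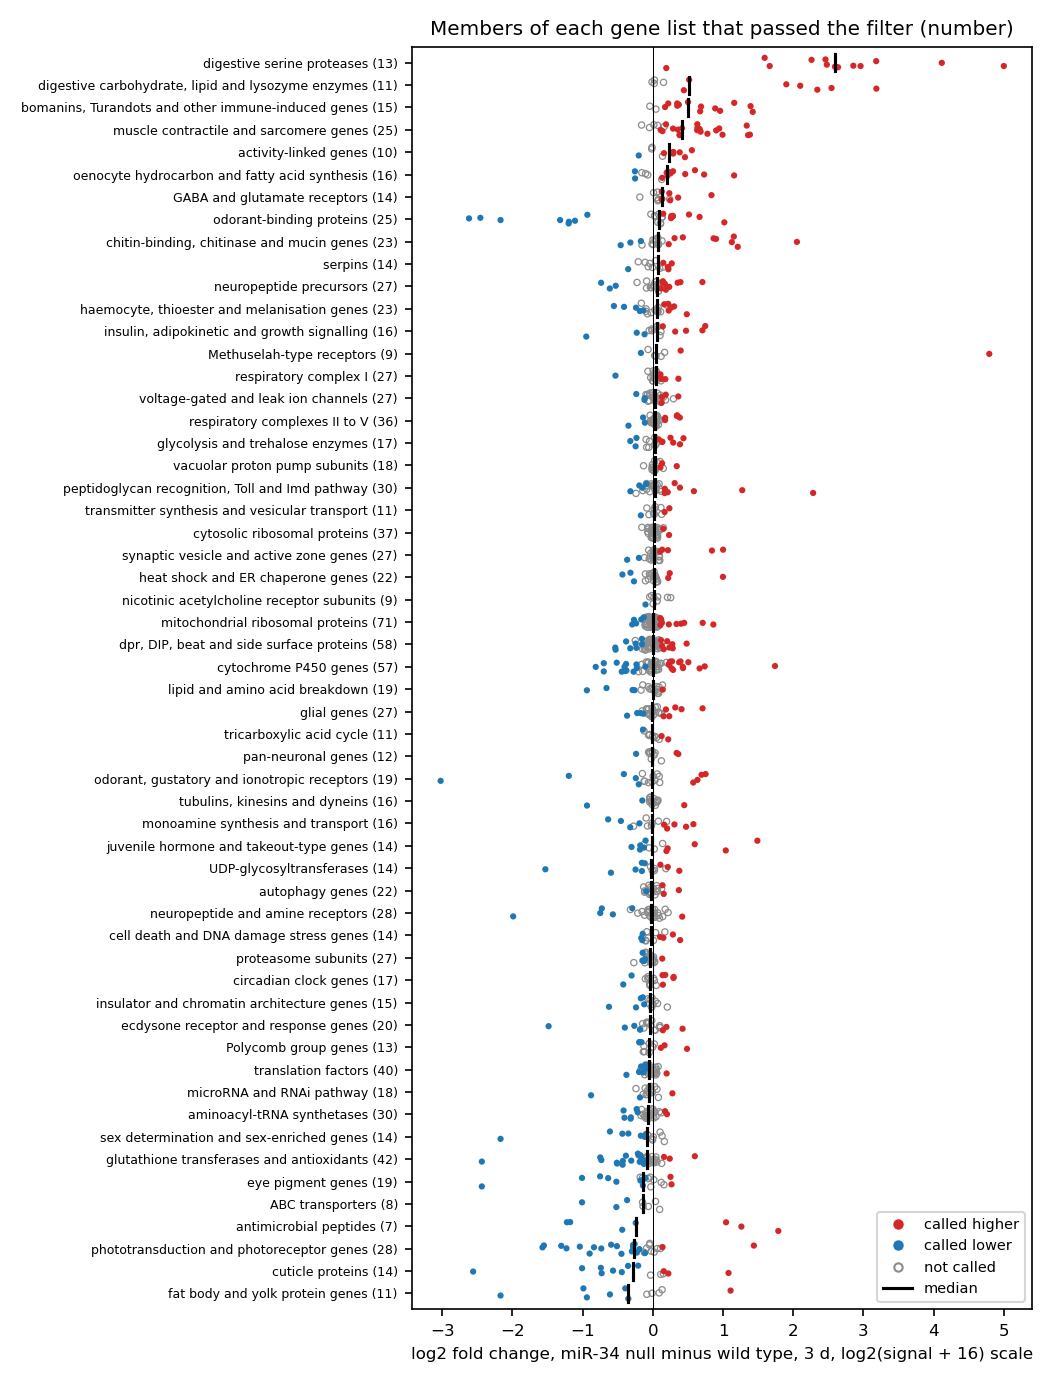
Log2 fold change at 3 d, null minus wild type, of every gene that passed the filter in each of the 56 gene lists, ordered by the list's median (black bar), with called genes filled and genes not called open. Digestive, immune-induced and muscle lists lie to the right of 0 and photoreceptor, cuticle and fat body lists to the left.

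Enzymes that detoxify foreign compounds differed by family. Of 57 measured cytochrome P450 genes 14 were higher and 13 lower, with a median of 0.00, whereas at 20 d 7 were higher and 27 lower. Cyp28d2 had 51.0, 61.1, 62.3, 58.7 and 61.0 units in the null arrays, against 5.82, 6.05, 6.56, 6.47 and 6.91 in the wild-type arrays, a change of 1.74 ± 0.048. Cyp4p2 changed by -0.81 ± 0.048 and Cyp6g2 by 0.74 ± 0.049. Of 42 glutathione transferase and antioxidant genes 18 were lower (42.9%, against 19.0% of all genes) and 3 higher, and their median was -0.09. Of the 42, 2 owed their pass of the filter to the 3 d wild-type arrays alone. The largest fall in the list was that of se (-2.44), which is also counted above among the eye pigment genes. GstD9 had 822, 849.6, 847, 896 and 855 units in the null arrays, against 1425, 1422, 1430, 1429 and 1448 in the wild-type arrays, a change of -0.73 ± 0.031. GstE14, which is needed to make ecdysone, changed by -0.75 ± 0.080, and GstD10 was also lower (-0.51). The antioxidant genes Cat (0.01) and Sod2 (-0.01) were not called. Of 14 UDP-glycosyltransferases 6 were lower and 3 higher. Ugt35C1 had 26.1, 32.8, 31.0, 33.3 and 29.3 units in the null arrays, against 119.7, 115, 108, 125 and 124 in the wild-type arrays, a change of -1.53 ± 0.052.

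Cuticle proteins were measured in only 14 of 110 genes, of which 8 were lower (57.1%, against 19.0% of all genes) and 3 higher, with a median of -0.28. Of the 14, 2 passed the filter only through the 3 d wild-type arrays, which favours genes lower in null. Cpr49Ag had 39.4, 45.7, 48.3, 42.6 and 33.0 units in the null arrays, against 331, 312, 295, 339.9 and 341 in the wild-type arrays, a change of -2.56 ± 0.071. Cpr11B rose by 1.08. The 4 markers of trachea and cuticle summed to 229 to 254 units in 3 d null and 763 to 872 in 3 d wild type, with all 3 that were tested lower. Most of this sum was retinin (median 166 in null, 419 in wild type) and Cpr49Ag (42.6 and 331). Cpr49Ag is the gene named above, so its share of the sum is no separate evidence. Gasp had medians of 24.7 and 36.6. The marker obst-A did not pass the filter, and its arrays overlapped between the lines. The sum therefore says little about trachea or cuticle as a whole. The part of these tissues in the falls was not tested.

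Some genes of chitin turnover were higher in null at 3 d and lower at 20 d. Of 23 measured chitin-binding, chitinase and mucin genes, 9 were higher (39.1%, against 16% of all genes) and 3 lower at 3 d, and 11 were not called. At 20 d 3 were higher and 9 lower, and the list's median was 0.08 at 3 d and -0.07 at 20 d. The age difference of the list as a whole was not tested. The digestive marker sums were also higher in null at 3 d (1541 to 1674 units, against 50.05 to 65.2 in wild type) and overlapped at 20 d. Those of trachea and cuticle, mostly retinin and Cpr49Ag at 3 d, were lower in null at both ages. At 20 d they were 73.5 to 77.6 units in null and 166 to 185 in wild type. The part of either tissue was not tested. The chitinase gene Cht9 had 119, 107, 117, 122 and 113 units in the null arrays, against 15.7, 16.9, 15.1, 17.2 and 14 in the wild-type arrays at 3 d, a change of 2.05 ± 0.054, and at 20 d the change was -1.54. Cht8 changed by 1.21 ± 0.058 at 3 d and -2.81 at 20 d, and the mucin-related gene Mur29B by 1.15 ± 0.068 and -1.93. Adjusted p of the interaction were 2.62e-21, 1.69e-21 and 6.05e-18.

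Hormones of growth and reproduction gave another pair of opposite signs. In the list of juvenile hormone and takeout-type genes 5 of 14 were higher and 5 lower. jhamt, the methyltransferase of the last steps of juvenile hormone synthesis, had 306, 321, 324, 317 and 322 units in the null arrays, against 137, 142, 148, 159 and 148 in the wild-type arrays, a change of 1.04 ± 0.038. Jhbp1, of the family of takeout-like hormone-binding proteins, had 296, 292, 296, 257 and 283 units in the null arrays, against 91.7, 87.1, 86.0, 98.6 and 91.9 in the wild-type arrays, a change of 1.49 ± 0.054, but was lower at 20 d (-0.36). Kr-h1, a transcription factor induced by juvenile hormone, was lower at 3 d (-0.18). Among ecdysone receptor and response genes 3 of 20 were higher and 5 lower, with ImpL1 at 5.09, 1.31, 1.23, 4.02 and 1.12 units in the null arrays, against 35.3, 39.2, 29.8, 36.5 and 38.5 in the wild-type arrays, a change of -1.49 ± 0.079.

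Fat body and hydrocarbon genes differed in direction. Of 11 measured fat body and yolk protein genes 6 were lower and 1 higher, with a median of -0.35. The largest fall in the list was that of Obp99b (-2.17), which is also counted above among the odorant-binding proteins. Lsp2, a storage protein, had 513, 497, 502, 517 and 511 units in the null arrays, against 1028, 1016, 1005, 1009 and 1066 in the wild-type arrays, a change of -0.99 ± 0.029. The yolk protein gene Yp3 changed by -0.61 ± 0.090. The exception was tobi, a target of insulin-like signalling that encodes a glucosidase-type protein, with 118, 117, 121, 128 and 117 units in the null arrays, against 41.0, 49.3, 39.6, 57.7 and 50.4 in the wild-type arrays, a change of 1.11 ± 0.061. The 8 fat body markers summed to 2229 to 2333 units in null and 2575 to 2760 in wild type at 3 d. Of the 6 that were tested, 3 were lower and 1, tobi, was higher. Most of this sum was apolpp (median 1555 in null, 1476 in wild type), which was not called, and Lsp2 (511 and 1016). Lsp2 is the gene named above, so its share of the sum is no separate evidence. The sum therefore says little about fat body as a whole. Enzymes of oenocyte hydrocarbon and fatty acid synthesis showed 10 rises (62.5%, against 16% of all genes) and 2 falls among 16 genes, and their median was 0.20. At 20 d 4 were higher and 9 lower. The 4 oenocyte markers summed to 1431 to 1576 units in null and 1293 to 1358 in wild type at 3 d. At 20 d they summed to 1366 to 1677 in null and 2795 to 3059 in wild type. Most of the 3 d sum was Desat1 (median 1441 in null, 1240 in wild type), which was called higher. Cyp4g1 was called lower (-0.39), FASN2 was not called and eloF did not pass the filter. The part of oenocytes in these changes was not tested. The fatty acid elongase genes Elovl7 and bond changed by 1.16 ± 0.085 and 0.73 ± 0.039 at 3 d and by 1.22 and -0.37 at 20 d. Of the lipid and amino acid breakdown genes 1 of 19 was higher and 4 lower. Gnmt, glycine N-methyltransferase, had 170.4, 167, 167, 174 and 177 units in the null arrays, against 345, 349, 329, 337 and 356 in the wild-type arrays at 3 d, a change of -0.94 ± 0.039, and was higher in null at 20 d (0.82, interaction adjusted p = 7.74e-18).

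Metabolic hormones and their receptors did not move together. InR, the insulin receptor, had 15.5, 15.2, 14.97, 19.6 and 21.3 units in the null arrays, against 42, 62.3, 57.1, 39.8 and 42.6 in the wild-type arrays, a change of -0.95 ± 0.11. Its ligands Ilp2 (0.10 ± 0.052) and Ilp5 (-0.05 ± 0.035) were not called, and neither was the adaptor gene chico (-0.01 ± 0.046) or the transcription factor gene foxo (0.12 ± 0.052). Ilp2 was called after wild-type replicate 2 was left out (adjusted p = 0.0427), and foxo after quantile normalization (adjusted p = 0.0438). Akh, the adipokinetic hormone that mobilises fat, had 822, 828, 831, 835 and 742 units in the null arrays, against 517, 485, 459, 487 and 507 in the wild-type arrays, a change of 0.71 ± 0.052, while its receptor gene AkhR changed by -0.23 ± 0.060. Lst, which encodes the insulin-suppressing hormone limostatin, changed by 0.75 ± 0.085. In the whole list 5 of 16 were higher and 3 lower.

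Some neuropeptide precursors and their receptors differed between the lines. Of 27 measured precursors 10 were higher (37.0%, against 16% of all genes) and 3 lower. Of 28 peptide and amine receptors 1 was higher and 5 lower (17.9%, close to the 19.0% of all genes). The balance among precursors depended on scaling, with 5 higher and 5 lower after median centring. SIFa, which encodes the peptide SIFamide, had 419, 432, 436, 422 and 404 units in the null arrays, against 328, 333, 332, 340.0 and 304 in the wild-type arrays, a change of 0.35 ± 0.039, and its receptor gene SIFaR had 96.3, 83.0, 73.8, 57.8 and 80.1 units in the null arrays, against 155, 129.9, 139.6, 144 and 138 in the wild-type arrays, a change of -0.75 ± 0.082. Leucokinin, Lk, changed by 0.39 ± 0.052, and its receptor gene Lkr by -0.73 ± 0.062. The ligand was higher and the receptor lower in both of these pairs, with no overlap between the groups. For the allatostatin C pair, the ligand gene AstC had 1568, 1519, 1469, 1633 and 1547 units in the null arrays, against 1340, 1540, 1508, 1480 and 1453 in the wild-type arrays, and was not called (0.08 ± 0.045), beside the fall of AstC-R1. Nplp3 (-0.74 ± 0.050), CCHa1 (-0.61 ± 0.086) and the eclosion hormone gene Eh (-0.53 ± 0.082) were lower.

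Of 16 measured genes of amine synthesis and transport, 5 were higher and 4 lower (56.2% called, against 35.0% of all genes), with changes from -0.64 to 0.58. DAT, the dopamine transporter, had 438, 418, 445, 501 and 477 units in the null arrays, against 295, 339.6, 331, 346 and 307 in the wild-type arrays, a change of 0.47 ± 0.065. ple, which encodes tyrosine hydroxylase, had 263, 301, 514, 408 and 530.1 units in the null arrays, against 466, 571, 522, 315 and 542 in the wild-type arrays, and was not called (-0.28 ± 0.19); its arrays varied widely in both groups. Pu, the enzyme that starts the synthesis of the tetrahydrobiopterin cofactor and of eye pteridines, changed by -0.64 ± 0.060. The tyrosine decarboxylase genes Tdc1 and Tdc2 changed by 0.58 ± 0.10 and 0.31 ± 0.061, and the octopamine receptor gene Octbeta1R by 0.42 ± 0.057, whereas Octbeta3R was lower (-0.57). Of the Methuselah-type receptors apart from mthl8, mthl2 changed by 0.40 ± 0.067.

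In lists of ion channels, synaptic, pan-neuronal, glial and surface protein genes the share called lay below or close to that of all genes. Neuropeptide precursors (48.1%), amine synthesis and transport (56.2%), GABA and glutamate receptors (50%) and activity-linked genes (70%) lay above it. Called members made up 25.9% of 27 voltage-gated and leak channels, 25.9% of 27 synaptic vesicle and active zone genes, 25.0% of 12 pan-neuronal genes, 37.0% of 27 glial genes and 29.3% of 58 dpr, DIP, beat and side surface proteins, beside 35.0% of all genes. Of the 58, 3 passed the filter only through the 3 d wild-type arrays, which favours genes lower in null. A single nicotinic receptor subunit of 9 was called, nAChRalpha7, and its call was lost without null replicate 3, 4 or 5 or wild-type replicate 1, 2, 3 or 5 (adjusted p from 0.0637 to 0.145). The nAChRalpha7 call was also lost under quantile normalization, no filter, the fit to the 3 d arrays alone and eBayes without trend and robust (adjusted p from 0.0504 to 0.0756). Single members had larger changes. Syt7, a calcium sensor of vesicle fusion, had 700.2, 699, 768, 800.0 and 848 units in the null arrays, against 360.3, 414, 379, 328 and 386 in the wild-type arrays, a change of 1.00 ± 0.066. Sytbeta changed by 0.84 ± 0.056, and Snap24 by -0.37 ± 0.041, while Snap25 was not called (-0.05 ± 0.044). The septate junction gene Nrx-IV changed by 0.71 ± 0.078, and Mdr65, an efflux transporter of the blood-brain barrier, by -0.37 ± 0.045.

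Of 14 GABA and glutamate receptor genes 7 were higher (50% called) and none lower, and their median was 0.13. pHCl-1, a chloride channel subunit of the same superfamily that is gated by pH, had 583, 583, 559, 584 and 518 units in the null arrays, against 306, 325, 318, 301 and 298 in the wild-type arrays, a change of 0.83 ± 0.059. Rdl, the main GABA-gated chloride channel, had 994, 939, 979, 939 and 844 units in the null arrays, against 781, 747, 709, 673 and 728 in the wild-type arrays, a change of 0.36 ± 0.055. The groups were apart in both. The call of GluRIB, 1 of the 7, was lost without null replicate 1, 2, 3 or 4 or wild-type replicate 1, 4 or 5 (adjusted p from 0.0608 to 0.127). It was also lost under quantile normalization, median centring, a pseudocount of 4, no filter, the stricter filter and the fit to the 3 d arrays alone (adjusted p from 0.0509 to 0.0961).

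Of 10 activity-linked genes 6 were higher and 1 lower, and their median was 0.22. The nuclear receptor gene Hr38 had 378, 366, 426, 400.4 and 520.0 units in the null arrays, against 254, 299, 273, 303 and 260.3 in the wild-type arrays, a change of 0.56 ± 0.098, and the zinc finger gene sr changed by 0.46 ± 0.064. At 20 d 6 of the 10 were higher and none lower.

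Of 17 clock genes 5 were higher and 2 lower (41.2% called, near the 35.0% of all genes). The clock runs on the activators Clk and cyc, which drive their own repressors per and tim. Clk changed by -0.42 ± 0.055 and cyc by -0.30 ± 0.055, per was not called (0.05 ± 0.064), and tim changed by 0.18 ± 0.047, a call lost under median centring (adjusted p = 0.0839). The repressor gene cwo changed by 0.30 ± 0.055. The sources used here do not give the time of day of dissection.

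In the microRNA and RNAi list 1 of 18 genes, Fmr1, was higher and 2 were lower (16.7% called, against 35.0% of all genes). aub, a Piwi-type protein of the germ line, had 6.57, 6.63, 6.37, 3.48 and 3.97 units in the null arrays, against 24.4, 23.8, 20.0, 25.5 and 23.2 in the wild-type arrays, a change of -0.88 ± 0.057. The other was Nbr, the exonuclease Nibbler that trims the 3' ends of microRNAs, with 159, 152, 185, 179.9 and 146 units in the null arrays, against 186, 186, 187, 193 and 190.4 in the wild-type arrays, and its call (adjusted p = 0.0471) was lost without null replicate 1, 2 or 5 or any 1 of the wild-type arrays (adjusted p from 0.0647 to 0.124). Nbr also lost its call under quantile normalization, a pseudocount of 64, no filter and eBayes without trend and robust (adjusted p from 0.0502 to 0.0697). Of 13 Polycomb group genes 3 were higher and 3 lower (46.2% called). Within Polycomb repressive complex 2, which methylates histone H3, Su(z)12 had 425, 441, 443, 455 and 448 units in the null arrays, against 319, 299, 311, 312 and 315 in the wild-type arrays, a change of 0.49 ± 0.035, whereas the catalytic subunit gene E(z) changed by -0.19 ± 0.050. Caf1-55 (0.11 ± 0.039) and Jarid2 (-0.16 ± 0.051) were called, but Jarid2 lost its call without null replicate 1 (adjusted p = 0.0545) and Caf1-55 without null replicate 2 or 3 or wild-type replicate 2 (adjusted p from 0.0635 to 0.0823). Caf1-55 also lost its call under median centring (adjusted p = 0.319) and in the fit to the 3 d arrays alone (adjusted p = 0.0557). Of 15 insulator and chromatin architecture genes 5 were lower and none higher. su(Hw), an insulator-binding zinc finger protein, had 53.3, 58.1, 69.9, 55.0 and 77.2 units in the null arrays, against 105, 107, 109, 98.0 and 104.3 in the wild-type arrays, a change of -0.63 ± 0.089.

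Families of the core machinery had few called members. Of 37 measured cytosolic ribosomal proteins 2 were higher and none lower (5.41% called), with a median of 0.02. Called members made up 22.2% of 27 complex I subunits, 22.2% of 36 subunits of complexes II to V, 22.5% of 71 mitochondrial ribosomal proteins, 18.5% of 27 proteasome subunits, 16.7% of 18 vacuolar proton pump subunits, 20.0% of 40 translation factors, 26.7% of 30 aminoacyl-tRNA synthetases, 18.2% of 22 autophagy genes and 27.3% of 22 heat shock and ER chaperone genes. Single members stood out from families whose median was near 0. mRpL50, of the large subunit of the mitochondrial ribosome, had 716, 713, 726, 761 and 732 units in the null arrays, against 377, 397, 387, 395 and 417 in the wild-type arrays, a change of 0.86 ± 0.032. ND-13B, an accessory subunit of complex I, had 1055, 1032, 949.9, 949 and 869 units in the null arrays, against 1432, 1387, 1403, 1393 and 1430 in the wild-type arrays, a change of -0.53 ± 0.051, whereas ND-B18 changed by 0.36 ± 0.060. eIF3l, a subunit of initiation factor eIF3, had 1114, 1143, 1098, 1116 and 1007 units in the null arrays, against 1457, 1355, 1429, 1418 and 1475 in the wild-type arrays, a change of -0.38 ± 0.036. Of 17 glycolysis and trehalose enzymes 10 were called (58.8%, against 35.0% of all genes), with the trehalose synthesis gene Tps1 at 0.44 ± 0.036 and the glycogen synthase gene Glys at -0.32 ± 0.030. Hsc70-1 changed by 1.00 ± 0.066, and the caspase gene Dronc by 0.39 ± 0.063 and the ligand gene egr, a tumour necrosis factor homologue, by 0.29 ± 0.031 in the list of cell death and DNA damage genes, where 4 of 14 were higher and 3 lower.

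A small set of probe sets was at high signal in one line and near the bottom of the range in the other. In 13 probe sets all 5 null arrays exceeded 100 units and all 5 wild-type arrays were under 16, and 10 of them named a gene, including both probe sets of mthl8. The second mthl8 probe set averaged 163 ± 24.1 units in null and 1.24 ± 0.741 in wild type. Only 2 probe sets had the opposite pattern, those of Meics and 1 of the 3 of CTCF, the insulator protein. That CTCF probe set averaged 1.47 ± 0.697 units in null and 162 ± 6.999 in wild type (SD, n = 5), a change of -3.35 ± 0.049, while the strongest probe set of CTCF changed by -0.24 ± 0.053. Such disagreement was uncommon. Among 514 genes with several probe sets tested, 9 had probe sets whose changes differed by at least 1 and 14 had probe sets called in opposite directions, with a median spread of 0.13. The 9 included mod(mdg4), a gene of many spliced forms, whose 21 probe sets ran from -1.88 ± 0.077 to 0.01 ± 0.036.

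Calls were not spread evenly over the genome. By the gene order of the Release 6 plus ISO1 MT assembly, 43.9% of 1462 genes tested on arm 3L were called, 37.7% of 1913 on 3R, 34.4% of 1385 on 2L, 31.9% of 1597 on 2R, 25.8% of 62 on chromosome 4 and 25.6% of 1261 on X, beside 35.0% of all genes. Differences of at least 2-fold were found in 4.24% of genes on 3L, 2.20% on 3R, 2.25% on 2R, 1.30% on 2L and 1.19% on X. Without the genes that the 3 d null arrays alone had brought past the filter, these shares were 3.27% on 3L, 1.85% on 3R, 1.46% on 2R, 0.876% on 2L and 1.04% on X. Among the 30 genes of largest change, 13 lay on 3L. In windows of 50 genes along the arms the share called was highest on 3L, at 66.0% in windows 10 and 13, and lowest there at 14%. On X it ranged from 16% to 42%. mir-34 itself lies on 3R. These shares are descriptions without a test.

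**Figure D5:**
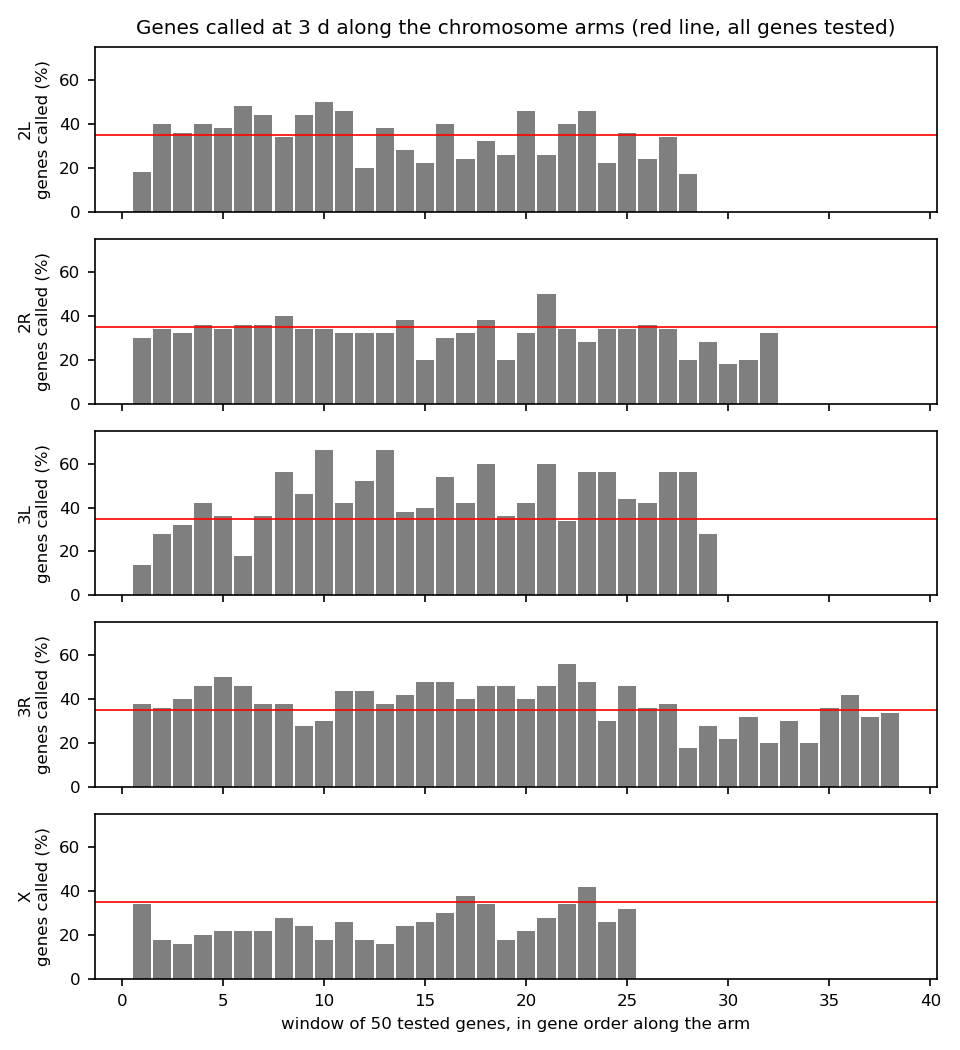
Percentage of genes called at 3 d in successive windows of 50 tested genes along each chromosome arm, with the red line at the 35.0% of all genes tested. Windows on 3L reach 66.0%, and most windows on X lie below the line.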

How the data were processed

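The deposited table holds 1 linear signal intensity per probe set and array for dissected brains, and its values ran from 0.0116 to 3455. Per the submitters' processing notes the authors used MAS5 and GCRMA, and the labels name MAS5 output for these arrays. Scanning settings and the array's genome build are not given in the sources used here. The intensities were used as deposited, as log2(signal + 16).

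The platform annotation pairs 13647 probe sets with a single gene symbol, and only these named a gene, whereas 402 have several symbols and 4720 lack one. Current names, arms and gene order came from a RefSeq table of Release 6 plus ISO1 MT, in which 103 of the 13647 were missing. The probe set of highest mean signal stood for a gene.

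The 20 arrays were fitted together with limma 3.58.1 in R 4.3.3, with a mean for each of 4 groups and with eBayes set to trend and robust, and adjusted p are Benjamini-Hochberg over the 9806 probe sets tested, called at 0.05. The code was tested on simulated data. Of the tested genes, 89 would have failed the filter without the 3 d null arrays and 70 without the 3 d wild-type arrays.

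The 56 gene lists, the members and the rule for naming genes were chosen with earlier results of these data known, and no list was tested. Names came from the 15 highest and 15 lowest changes with groups that did not overlap, the 3 called members of largest change in each list, members of the same complex or ligand and receptor pair, and mir-34, Fmr1, Eip74EF and w. Drs, Drsl5, Def, CecB, Obp28a, Obp56e, lush, GstD10, Cat, Sod2, Kr-h1, Octbeta3R, inaD and the probe sets that disagreed were chosen after their values were seen. Of the names in the lists, 83 needed a synonym for the match and 47 found none. A few lists were corrected for false name matches after the files were read.

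Same-numbered arrays of the 2 genotypes correlated in their deviations at 0.18, -0.18, -0.00, 0.20 and -0.09. The labels do not tell what the replicate number marks, and these few values cannot settle whether it pairs the arrays. The main fit used no pairing and called 3319 probe sets, against 3463 with the replicate number as a block. The alternatives were quantile normalization, median centring, pseudocounts of 4 and 64, no filter, a stricter filter, a fit to the 3 d arrays alone, the replicate number as a block, eBayes without trend and robust, the mean of a gene's probe sets, and leaving out each array.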

Additional observations from a re-analysis of the deposited data

Results flagged for a closer look

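Genes with 1 array far from the other 4 of its group were sought among the 210 genes named by the rule, by the gap to the nearest array divided by the group's range, against Dixon's critical value of 0.71 for 5 arrays. Of 420 group tests 26 passed (6.19%), and chance gives about 1 in 20. In 3 d null arrays the lowest array stood apart for Jon25Biii (0.754), CG15814 (0.859), Akh (0.865), ChT (0.762), GluRIB (0.795), Rpn2 (0.723), PCB (0.722), betaTub60D (0.744), inaC (0.942) and tim (0.784), and the highest for ltl (0.712), Hsc70-1 (0.725), mthl2 (0.747) and insv (0.75). In 3 d wild-type arrays the lowest array stood apart for Jon25Biii (0.836), Nplp3 (0.851), eIF4E1 (0.758) and eIF3e (0.79), and the highest for mthl8 (0.859), CG16826 (0.743), CG8562 (0.905), DptB (0.818), Mtk (0.802), CheA75a (0.817), Yp3 (0.712) and Mlc2 (0.718). 

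The effect of genotype at 20 d minus that at 3 d was called in the limma interaction for 23 of the 30 genes of largest change. It was negative for Jon99Fi (-5.22), CG16826 (-4.07), whe (-2.93), Jon25Biii (-4.22), CG8562 (-3.21), alphaTry (-3.03), CG13947 (-2.52), CG18180 (-3.0), CG3868 (-2.90), yip7 (-2.79), CG12009 (-0.33), thetaTry (-2.73), CG18493 (-2.74) and CG43085 (-0.65). It was positive for CG9377 (2.53), Ir76a (0.98), Obp83b (2.32), Cpr49Ag (0.39), Obp69a (0.81), pkm (0.70), CG6870 (0.39), Obp99b (0.30) and ltl (0.75). All values are differences of log2 fold changes, and the 30 genes were chosen by their change at 3 d.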

How the results depend on the processing

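The main counts of 1513 higher and 1806 lower probe sets kept their order of size except for the balance under median centring. At least 2-fold falls numbered 135 with a pseudocount of 4 and 37 with 64, at least 2-fold rises 58 with 64 and 87 under the stricter filter. Under that filter, 7 digestive proteases and 3 other digestive enzymes were higher, 2 antimicrobial peptides were lower with a list median of 1.04, 5 odorant-binding proteins were higher and 3 lower, and 0 oenocyte and fatty acid genes were lower. Median centring gave 1 lower muscle gene, 1 higher photoreceptor gene, 4 lower oenocyte and fatty acid genes, 1 higher cuticle gene, and 5 higher and 5 lower neuropeptide precursors. A fit to the 10 arrays of 3 d, and the mean of probe sets, each gave 1 lower muscle gene. The interaction of Cpr49Ag was -0.0238 with a pseudocount of 4 (adjusted p = 0.938). The causes were not tested.

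Leaving out 1 array at a time gave 3036 to 3290 called probe sets, 1410 to 1481 higher and 1604 to 1809 lower, 132 to 139 at least 2-fold higher and 85 to 89 lower. With the replicate number as a block, none of the 210 named genes changed its call at 3 d. Of the 210, 193 could be fitted under the stricter filter. Under the settings that gave each gene a value, left-out arrays included, 183 kept their call, 23 changed it under another setting and 15 on leaving out an array. The arrays carry no counts, so signal near the bottom of the range limits low genes.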
